A study of Mus musculus with 12 samples.

Results

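Ionotropic GABA-A receptors are the subject here: 7 genes of the mouse that encode their subunits, Gabra2, Gabra3, Gabra4, Gabra5, Gabrb1, Gabrb2 and Gabrd. They were chosen by name, as every non-control probe on the arrays whose gene name is one of these symbols, which gave 11 probes for the 7 genes out of 29608 gene names on the array. All 7 had a spot that passed the signal filter in the 10 samples outside 1 weak array, and 6 of them, all except Gabra5, had one that passed in all 12 samples.

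The receptor is a pentameric chloride channel opened by GABA, the main inhibitory transmitter of the adult brain. Alpha and beta subunits form the GABA binding site, a gamma subunit usually completes the synaptic receptor, and a delta subunit takes that place in extrasynaptic receptors that carry tonic inhibition. The alpha subunit sets much of the location and pharmacology of a receptor: alpha-5 is known from hippocampal pyramidal cells, alpha-4 with delta from dentate granule cells, thalamus and striatum, alpha-2 from the hippocampus and the axon initial segment, and alpha-3 from cortex and monoaminergic nuclei.

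The data are RNA levels in the hippocampus of 12 female mice about 12 weeks old and in diestrus, 4 in each of 3 groups. MRL/lpr mice have the MRL background with a Fas mutation that abolishes its function, and develop a lupus-like disease. Fn14koMRL mice, littermates of the MRL/lpr from a line backcrossed to it, carry the same Fas mutation and lack in addition Tnfrsf12a, the gene of the TWEAK receptor Fn14. MRL/MpJ mice, bought from another breeder, share the MRL background with neither change. Each mouse was labelled with 1 dye, Cy3 for odd and Cy5 for even replicate numbers, and 2 mice of the same group were hybridized to each of 6 arrays. Both arrays of a group sat on the same slide, so slide and group cannot be told apart in any comparison below, and neither can breeder and group where MRL/MpJ is one side of it.

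Several properties of the whole series touch the values that follow. The array of MRL/lpr replicates 3 and 4 was weak, with a median foreground of 1.73 to 1.93 times background against 4.42 to 12.6 times in the other 10 samples, so the results of the 7 members are given with and without it. Marker levels and most values of other genes are from the 10 samples outside it. In the 2 MRL/MpJ samples labelled with Cy5, negative-control spots had a median signal of 208 to 211, against 33.2 to 90.6 in the other 10 samples. The probe for Tnfrsf12a read 0.603 to 0.771 times the channel median in the mice labelled Fn14koMRL and was well above background in 4 of 4, below the 1.09 to 1.98 of the other 6 samples. Whether this probe lies within the deleted part of the gene is not given in the sources used here, so it does not check the label. Fas read 0.106 to 0.145 in MRL/lpr, 0.165 to 0.233 in Fn14koMRL and 0.192 to 0.659 in MRL/MpJ. Its probe was well above background in 1 of 2, 4 of 4 and 2 of 4 of these samples, so some of these values lie near background. Of 6 dentate granule cell markers 3 (Prox1, Dsp and Tdo2) had no spot that passed the filter in the 10 samples, although the tissue is labelled hippocampus. The summed level of 8 striatal projection neuron markers was 13.7 to 15.3 in MRL/lpr, 35.8 to 102 in Fn14koMRL and 16.0 to 33.0 in MRL/MpJ, and that of 8 choroid plexus markers was 45.2 to 147 in MRL/lpr, 2.47 to 22.2 in Fn14koMRL and 4.01 to 7.07 in MRL/MpJ. Here and below, a sum follows its brightest probes more than the others. Ttr alone was at 126 and 37.7 in MRL/lpr. The part of these tissue differences in the subunit results was not tested. In whole tissue, fewer cells of a type and less RNA per cell cannot be told apart.

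The stretches of 30 bases for Gabra5, Gabrd and Gabra3 are shown because the results turn on those spots, and that for Gabra2 because its probes overlap and are not independent. Each is the 5′ end of a 60-base probe, with the position of the probe on mouse build mm9 as the array files give it, on the minus strand. Capitals mark the 29 bases that both Gabra2 probes share.
Gabra5, chr7:64663486-64663545: ctgtggacatttaagtccagtacgaattgc
Gabrd, chr4:154759071-154759089: aggccttttctctgtgggatcaggatcaga
Gabra3, chrX:69678031-69678090: ctgtagaaattgtgttttaaaatgctttgg
Gabra2, chr5:71352275-71352334: TCAGCTCACTTCAATCATTGGAAACTACCt
Gabra5 and Gabrd rest on 1 probe each, and for Gabrd the files place only 19 of its 60 bases. Gabra2 has 2 probes, which overlap in chr5:71352306-71352334, Gabra3 has 2, Gabrb1 has 3, and Gabra4 and Gabrb2 have 1 each. No exon or untranslated region was assigned to these positions. The genes lie in the family's clusters, as the order of genes in the GRCm38.p6 annotation shows: Gabra2, Gabra4 and Gabrb1 with Gabrg1 on chromosome 5, Gabra5 next to Gabrg3 on chromosome 7, Gabrb2 next to Gabra6 on chromosome 11, Gabra3 between Gabre and Gabrq on chromosome X, and Gabrd apart from them on chromosome 4.

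Levels are background-subtracted intensities divided by the median of their channel over the spots kept in the fit. A level of 1 is thus the median kept spot of that sample, not the median of all its spots. Levels with and without the weak array are relative to different sets of spots and were not compared with each other, and since probes differ in brightness, levels of different genes were not compared either. Fold changes are on the log2 scale, from limma fits that include dye, with p-values adjusted by the Benjamini-Hochberg method over all genes tested (8864 genes with 12 samples, 17936 with 10). A gene is said to have changed, risen or fallen where the adjusted p is below 0.05.

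Gabrd was lower in MRL/lpr than in both other groups, and Gabra5 was higher in the MRL/lpr mice of the array with normal signal. Without the weak array, Gabrd fell by 1.42 on the log2 scale against MRL/MpJ and by 1.59 against Fn14koMRL, whereas Gabra5 rose by 1.86 and 1.78. Of the 7 members 3 changed between MRL/lpr and MRL/MpJ (Gabra5, Gabra2 and Gabrd), 2 between MRL/lpr and Fn14koMRL (Gabra5 and Gabrd) and 0 between Fn14koMRL and MRL/MpJ. Over all genes the same test called 15.7% in the first comparison, 9.12% in the second and 21.1% in the third. With all 12 samples, 2 of 6 members changed between MRL/lpr and MRL/MpJ (Gabra2 and Gabrd), 1 of 6 between MRL/lpr and Fn14koMRL (Gabrd) and 0 of 6 between Fn14koMRL and MRL/MpJ, beside 9.17%, 3.98% and 0.519% of all genes. The MRL/lpr samples serve in both of the first 2 comparisons, so these are not independent of each other. The plot of fold changes shows both sets of estimates.

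**Figure D1:**
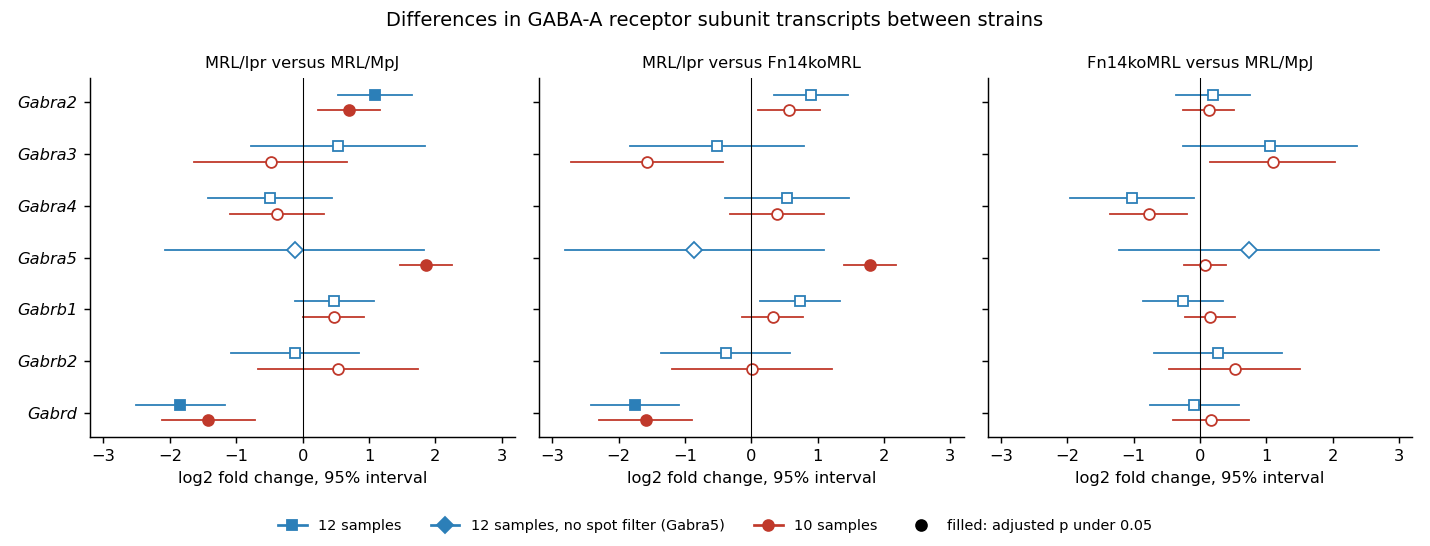
Log2 fold changes (x axis) of the 7 subunit genes (rows) in the 3 comparisons, with 95% intervals, for 12 samples (squares; a diamond for Gabra5, whose spot did not pass the filter in 1 sample) and for the 10 samples outside the weak array (circles); filled symbols have an adjusted p under 0.05. Gabrd lies left of 0 in both comparisons of MRL/lpr with either set of samples, and Gabra5 lies at 1.86 and 1.78 with 10 samples but at -0.12 and -0.86 with 12.

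Gabrd encodes the delta subunit of extrasynaptic receptors. In the 10 samples its level was 4.72 and 4.62 in MRL/lpr replicates 1 and 2. It was 8.63, 13.0, 15.7 and 22.2 in Fn14koMRL replicates 1 to 4, and 10.4, 11.1, 16.6 and 12.7 in MRL/MpJ. Both MRL/lpr samples lay below all 8 others, and the other groups overlapped. The fall was 2.68-fold against MRL/MpJ (log2 fold change -1.42 ± 0.32, SE, limma adjusted p = 0.0144) and 3.01-fold against Fn14koMRL (log2 fold change -1.59 ± 0.32, SE, limma adjusted p = 0.0119). With 2 samples against 4, the two-sided exact permutation test gave its smallest possible p, 0.0667, in both cases.

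The weak array gave the same order for Gabrd. With all 12 samples the levels were 1.25, 1.23, 0.593 and 1.28 in MRL/lpr. They were 2.17, 3.28, 3.85 and 5.53 in Fn14koMRL, and 2.71, 4.09, 4.21 and 4.10 in MRL/MpJ. All 4 MRL/lpr samples lay below all 8 others, and the probe was well above background in 12 of 12. The log2 fold change was -1.84 ± 0.30 (SE, limma adjusted p = 0.00788) against MRL/MpJ and -1.76 ± 0.30 (SE, limma adjusted p = 0.0134) against Fn14koMRL, and the exact permutation test of 4 mice against 4, which treats the mice as independent although 2 share each array, gave p = 0.0286 in both cases, the smallest it allows. The difference had the same direction within each dye: against MRL/MpJ it was -1.97 among Cy3 samples and -1.71 among Cy5 samples, and against Fn14koMRL -1.75 and -1.77. With 2 samples against 2, none of these passed the threshold on its own (limma adjusted p = 0.136 to 0.544).

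The calls for Gabrd depended on how the arrays were treated. With array as a random block (consensus correlation 0.71 over 12 samples) the log2 fold changes stayed at -1.84 and -1.76 but the limma adjusted p became 0.20 and 0.276. Over 10 samples the estimated correlation was -0.26 and the adjusted p were 0.00603 and 0.00473, with MRL/lpr on a single array. Without the filter on spots, the 12-sample fold change against MRL/MpJ was -2.38 with an adjusted p of 0.122, and against Fn14koMRL -3.21 with 0.0171. The call against Fn14koMRL over 12 samples was lost without Fn14koMRL replicate 3 (adjusted p = 0.0581) or replicate 4 (adjusted p = 0.0709), and both 10-sample calls were lost without MRL/lpr replicate 1 or 2, with adjusted p of 0.077 to 0.147. Between Fn14koMRL and MRL/MpJ the log2 fold change of Gabrd was -0.08 with 12 samples (95% interval -0.75 to 0.58) and 0.17 with 10 (-0.40 to 0.74).

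**Figure D2:**
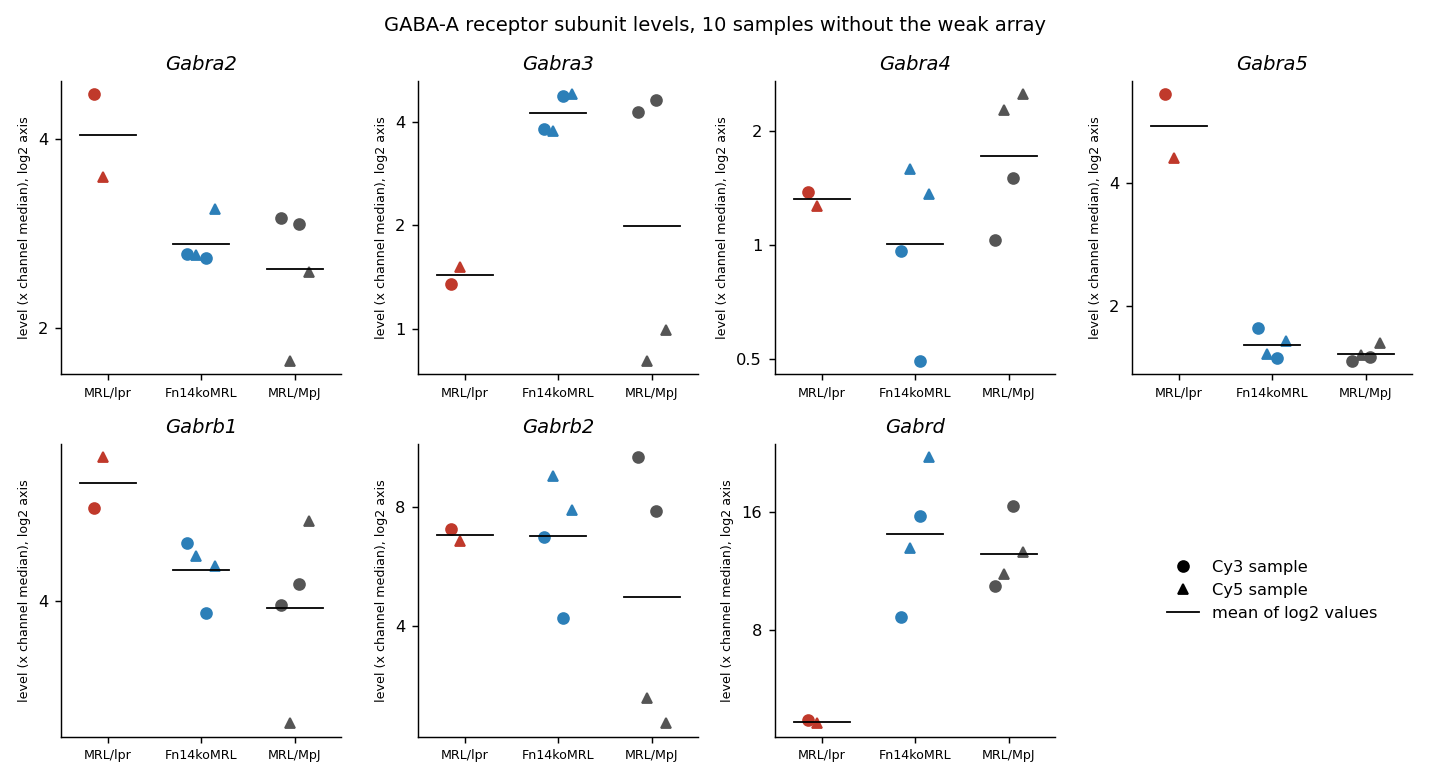
Level of each subunit gene (multiples of the channel median, log2 axis) in the 10 samples outside the weak array, by group; circles are Cy3 samples, triangles Cy5 samples, and lines the mean of log2 values. Both MRL/lpr samples are above all others for Gabra5 and below all others for Gabrd, while Gabra3 and Gabrb2 in MRL/MpJ separate by dye.

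Gabra5 encodes the alpha-5 subunit, of extrasynaptic receptors on hippocampal pyramidal cells. Its level was 6.60 and 4.62 in MRL/lpr replicates 1 and 2. It was 1.77, 1.52, 1.49 and 1.64 in Fn14koMRL and 1.47, 1.51, 1.50 and 1.63 in MRL/MpJ. Both MRL/lpr samples exceeded all 8 others, whose groups overlapped. The coefficient of variation was 7.86% in Fn14koMRL and 4.55% in MRL/MpJ, beside medians over all genes of 17.6% and 26.2%. In MRL/lpr, with 2 samples, it was 25.0% beside 12.4%. The rise was 3.62-fold against MRL/MpJ (log2 fold change 1.86 ± 0.18, SE, limma adjusted p = 0.000132) and 3.44-fold against Fn14koMRL (log2 fold change 1.78 ± 0.18, SE, limma adjusted p = 0.000295). The exact permutation p was 0.0667 for both, the smallest that 2 against 4 allows. Both calls held when any single sample was left out, with adjusted p of 0.000166 to 0.0113, and the direction was the same within each dye (2.15 among Cy3 and 1.56 among Cy5 samples against MRL/MpJ, and 2.02 and 1.55 against Fn14koMRL). With 1 MRL/lpr sample left out, or within a dye, MRL/lpr is a single sample that is taken to vary like the other groups. Under the methods' t-test, which works on linear values, both lost significance (unadjusted p = 0.151 and 0.153).

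The weak array did not show this rise. In MRL/lpr replicate 4 the Gabra5 spot failed the signal filter, so the 12-sample fit with that filter does not hold the gene. When spots valid in at least 11 samples were kept, a filter chosen after the data had been seen, the Gabra5 level was 3.18, 2.27, 0.494 and 0.447 in MRL/lpr replicates 1 to 4. On the same scale it was 0.83, 0.718, 0.69 and 0.781 in Fn14koMRL and 0.696, 0.908, 0.697 and 0.902 in MRL/MpJ. MRL/lpr replicates 1 and 2 thus stood above, and replicates 3 and 4 below, all 8 samples of the other groups. The Gabra5 spot was well above background in 4 of 4 samples of each other group but in 2 of 4 in MRL/lpr. Neither sample of the weak array was among these, so the levels of replicates 3 and 4 are those of a spot near background. The log2 fold change under that filter was 0.50 against MRL/MpJ and 0.58 against Fn14koMRL, with limma adjusted p of 0.543 and 0.428. Without any filter it was -0.12 ± 0.91 (SE) and -0.86 ± 0.91, with adjusted p of 0.976 and 0.487, where 0.993% and 12.8% of all 29608 genes were called. In the comparison of Fn14koMRL with MRL/MpJ, Gabra5 differed by 0.07 with 10 samples (95% interval -0.25 to 0.39) and by 0.74 ± 0.91 without a filter over 12, a fit that called 0% of genes.

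**Figure D3:**
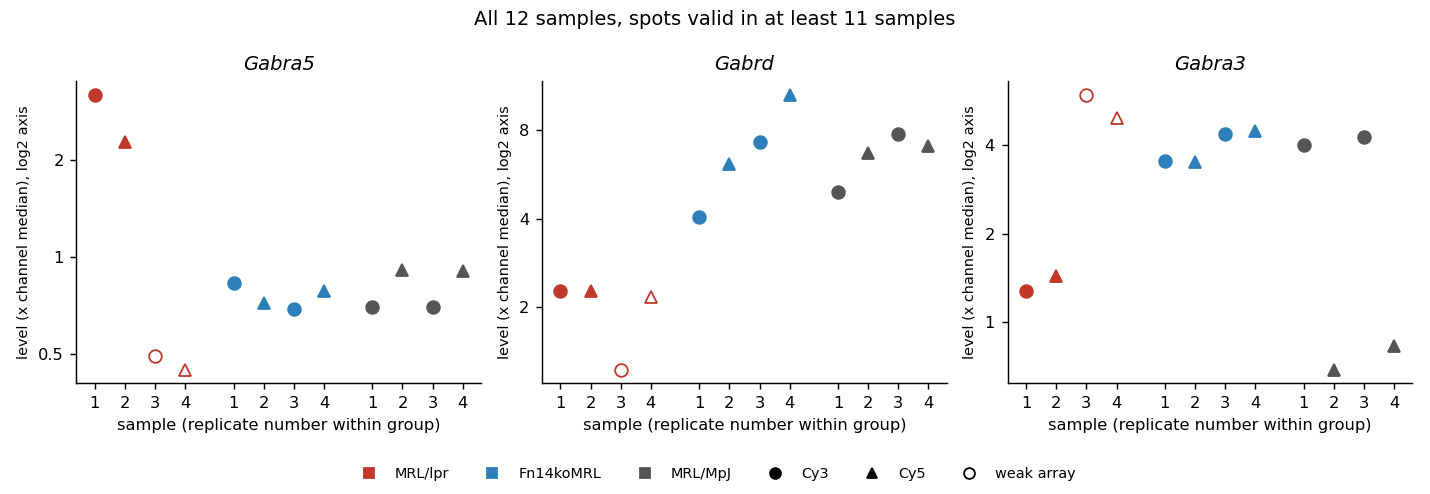
Levels (multiples of the channel median, log2 axis) of Gabra5, Gabrd and Gabra3 in all 12 samples, from spots valid in at least 11 of them; open symbols are the weak array, circles Cy3 and triangles Cy5. For Gabra5 the MRL/lpr arrays lie on opposite sides of all other samples, but on the weak array its spot was not well above background. For Gabrd all 4 MRL/lpr samples lie below all other samples, and for Gabra3 the weak array lies above all other samples.

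Markers of hippocampal and other cells also differed between the groups in the 10 samples. Of 8 markers of CA1 and CA3 pyramidal cells, 3 rose and 1 fell between MRL/lpr and MRL/MpJ, with a median log2 fold change of 0.99, and 2 rose between MRL/lpr and Fn14koMRL, with a median of 0.45. The medians over all genes were -0.10 and -0.04. Their summed level was 44.2 to 51.3 in MRL/lpr, 34.7 to 49.97 in Fn14koMRL and 22.3 to 38.6 in MRL/MpJ. Some of these markers split by dye in MRL/MpJ. Bok, Pou3f1 and Mpped1 were at 2.86 and 2.74, 4.44 and 4.31, and 9.11 and 7.60 in the Cy3 samples. In the Cy5 samples they were at 1.13 and 1.17, 1.14 and 1.34, and 1.30 and 1.54. Fibcd1 split the other way, at 0.118 and 0.105 in Cy3 and 0.308 and 0.234 in Cy5. Neurod6, a transcription factor of pyramidal cells, was at 6.62 and 5.44 in MRL/lpr and at 0.88 to 2.05 in the other 8 samples. With all 12 samples it was not called, at 0.90 against MRL/MpJ and 1.12 against Fn14koMRL (limma adjusted p = 0.177 and 0.121). Of 8 interneuron markers 4 fell and 0 rose between MRL/lpr and MRL/MpJ, 3 fell and 1 rose (Lhx6) between MRL/lpr and Fn14koMRL, and their summed level was 145 to 190 in MRL/lpr, 131 to 209 in Fn14koMRL and 184 to 246 in MRL/MpJ. Cck, the brightest of them, was at 91.2 and 125, 66.1 to 127 and 102 to 155 in these groups. Of the 3 dentate granule cell markers measured, 1 rose in MRL/lpr against each other group (C1ql2), and their sum was 2.08 to 2.45 in MRL/lpr, 1.22 to 1.36 in Fn14koMRL and 1.21 to 2.05 in MRL/MpJ. Of 6 thalamic markers measured, 1 rose and 1 fell between MRL/lpr and MRL/MpJ and 2 rose between MRL/lpr and Fn14koMRL, and their summed levels overlapped, at 7.05 to 7.62, 7.24 to 9.51 and 6.08 to 8.34. For striatal projection neurons, 2 of 8 markers fell between MRL/lpr and MRL/MpJ and 5 fell between MRL/lpr and Fn14koMRL. Choroid plexus markers rose, 5 of 8 in both comparisons. General neuronal markers summed to 242 to 310 in MRL/lpr, 222 to 297 in Fn14koMRL and 253 to 308 in MRL/MpJ, and 1 of 8 fell in each comparison of MRL/lpr. For astrocytes 1 of 7 markers rose and 2 fell between MRL/lpr and MRL/MpJ, for oligodendrocytes 1 of 7 rose, and for microglia 1 of 7 fell. Against Fn14koMRL, 1 of 7 astrocyte markers rose and 1 fell, 0 of 7 oligodendrocyte markers changed, and 1 of 7 microglial markers rose and 1 fell. Over all genes 15.7% were called against MRL/MpJ and 9.12% against Fn14koMRL. Between Fn14koMRL and MRL/MpJ, 4 of 8 interneuron markers fell, 4 of 8 striatal markers rose, and 2 of 8 pyramidal cell markers rose and 2 fell, beside 21.1% of all genes. The part of these markers in the values of Gabra5 and Gabrd was not tested.

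Gabra2 encodes the alpha-2 subunit. With all 12 samples its level was 1.38, 1.15, 1.74 and 2.43 in MRL/lpr. It was 0.79, 0.889, 0.78 and 1.03 in Fn14koMRL and 0.897, 0.688, 0.792 and 0.668 in MRL/MpJ. All 4 MRL/lpr samples exceeded all 8 others. Gabra2 rose by 1.09 ± 0.26 (SE) against MRL/MpJ, with a limma adjusted p of 0.0294, and the difference from Fn14koMRL, 0.89 ± 0.26, had an adjusted p of 0.0657. The exact permutation p was 0.0286 in both, the smallest for 4 against 4.

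Without the weak array the Gabra2 levels were 4.71 and 3.48 in MRL/lpr, 2.59 to 3.09 in Fn14koMRL and 1.78 to 2.99 in MRL/MpJ. The log2 fold change against MRL/MpJ was 0.70 ± 0.21 (SE, limma adjusted p = 0.0468), and the one against Fn14koMRL was 0.57 ± 0.21 (SE, adjusted p = 0.128). The call was close to its threshold. It was lost over 12 samples without the filter on spots (0.10, adjusted p = 0.969) and with array as a random block (adjusted p = 0.294), and over 10 samples with the replicate number as a block (adjusted p = 0.0775). Over 12 samples it was also lost without MRL/lpr replicate 3 or 4, Fn14koMRL replicate 2, or any 1 of the MRL/MpJ samples (adjusted p = 0.0509 to 0.106), and over 10 without MRL/lpr replicate 1 or 2, Fn14koMRL replicate 1 or 2, or any 1 of the MRL/MpJ samples (adjusted p = 0.0515 to 0.233). The probes agreed in direction with 10 samples (0.90 and 0.48 against MRL/MpJ), while with 12 the probe that failed the filter in 1 sample gave -0.29. Between Fn14koMRL and MRL/MpJ, Gabra2 differed by 0.20 with 12 samples (95% interval -0.36 to 0.76) and by 0.13 with 10 (-0.25 to 0.51).

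Gabra3 encodes the alpha-3 subunit. In the 10 samples its level was 1.35 and 1.52 in MRL/lpr and 3.81, 3.76, 4.77 and 4.81 in Fn14koMRL. In MRL/MpJ it was 4.27 and 4.63 in the Cy3 samples and 0.81 and 0.99 in the Cy5 samples, whose negative-control spots were bright. MRL/lpr was below all 4 Fn14koMRL samples and between the dyes of MRL/MpJ. The log2 fold change against Fn14koMRL was -1.57 ± 0.52 (SE, limma adjusted p = 0.0909), with -1.66 among Cy3 and -1.49 among Cy5 samples, where MRL/lpr is 1 sample in each. Against MRL/MpJ it was -0.48 ± 0.52 overall (adjusted p = 0.541), -1.72 among Cy3 and 0.76 among Cy5 samples. These values differ in sign but each rests on 1 MRL/lpr sample against 2 MRL/MpJ samples. The part of dye and background in this split was not tested. With all 12 samples and the filter on spots, the weak array read Gabra3 higher than any other sample. The levels were 0.702, 0.777, 2.86 and 2.93 in MRL/lpr. They were 1.86 to 2.36 in Fn14koMRL and 2.20, 0.421, 2.31 and 0.481 in MRL/MpJ. The fold changes were 0.54 against MRL/MpJ and -0.52 against Fn14koMRL (adjusted p = 0.52 and 0.507). Without that filter, where both probes enter, this order was not seen. In MRL/lpr the levels were then 5.77, 5.91, 9.78 and 5.30, below the 20.7 to 31.5 of Fn14koMRL. Of the MRL/MpJ samples, those with Cy3 lay above all MRL/lpr samples and those with Cy5, at 1.61 and 2.24, below them. The log2 fold change was -1.94 against Fn14koMRL and -0.18 against MRL/MpJ (limma adjusted p = 0.062 and 0.949). The second probe for Gabra3 was well above background in 4 of the 10 samples, in 0 of 2 of them in MRL/lpr, so its differences were not compared with those of the first. Both probes enter the mean over 10 samples.

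Gabra4 encodes the alpha-4 subunit, a partner of delta. Its levels in the 10 samples were 1.37 and 1.27 in MRL/lpr, 0.963, 1.59, 0.493 and 1.36 in Fn14koMRL, and 1.03, 2.26, 1.50 and 2.50 in MRL/MpJ. All 3 groups overlapped. The lowest adjusted p among its comparisons was for Fn14koMRL against MRL/MpJ, with -0.77 ± 0.26 (SE, limma adjusted p = 0.0584) over 10 samples and -1.02 ± 0.43 (adjusted p = 0.265) over 12. The log2 fold change of MRL/lpr was -0.38 against MRL/MpJ and 0.39 against Fn14koMRL, with intervals of -1.09 to 0.33 and -0.32 to 1.10, both of which hold the value 0. Within dyes, Gabra4 in Fn14koMRL had -0.70 against MRL/MpJ among Cy5 samples and -0.85 among Cy3 samples (adjusted p = 0.00683 and 0.329), and in MRL/lpr, with 1 sample for each dye, it had -0.91 and 0.14. The fall of Gabrd in MRL/lpr thus stood beside no call for Gabra4.

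The beta subunits, which every receptor of the common types holds, passed the threshold in no comparison. Gabrb1 was at 5.08 and 5.79 in MRL/lpr, 4.64, 4.49, 3.88 and 4.38 in Fn14koMRL, and 3.96, 2.92, 4.18 and 4.91 in MRL/MpJ. Both MRL/lpr samples were above the others, by 0.47 ± 0.21 (SE, limma adjusted p = 0.144) against MRL/MpJ and 0.32 ± 0.21 (adjusted p = 0.407) against Fn14koMRL. With 12 samples the differences were 0.48 ± 0.27 (adjusted p = 0.216) and 0.73 ± 0.27 (adjusted p = 0.104). Of its 3 probes, 1 was well above background in 0 of 12 samples and did not enter. The values over 12 samples rest on 1 probe. Another probe passed the filter in 11 of 12 samples and so entered only with 10. Over 12 samples that probe gave -0.70 against MRL/MpJ and -0.70 against Fn14koMRL, and over 10 it gave 0.58 and 0.33.

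Gabrb2 was at 7.04 and 6.55 in MRL/lpr and 6.71, 9.55, 4.17 and 7.83 in Fn14koMRL. In MRL/MpJ it was at 10.7 and 7.81 in the Cy3 samples and 2.61 and 2.26 in the Cy5 samples, a split like that of Gabra3. Against MRL/MpJ the fold change of Fn14koMRL was -0.79 among Cy3 and 1.83 among Cy5 samples (limma adjusted p = 0.272 and 0.00015), and that of MRL/lpr, with 1 sample for each dye, was -0.38 and 1.43. The log2 fold change of MRL/lpr was 0.53 ± 0.55 (SE, limma adjusted p = 0.521) against MRL/MpJ and 0.01 ± 0.55 (adjusted p = 0.998) against Fn14koMRL, with intervals of -0.68 to 1.73 and -1.20 to 1.21. With 12 samples the fold changes were -0.11 (adjusted p = 0.858) and -0.39 (adjusted p = 0.505).

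Groups that did not overlap were read against their frequency over all genes. With 10 samples the groups were separate for 4 members between MRL/lpr and MRL/MpJ and for 5 between MRL/lpr and Fn14koMRL, where 34.0% and 37.0% of all genes were, and for 0 between Fn14koMRL and MRL/MpJ, where 18.5% were. With 12 samples the counts were 2, 3 and 0 of 6 members, beside 16.1%, 21.5% and 19.9% of all genes. In the comparison of Fn14koMRL with MRL/MpJ, limma called 0 members. With 12 samples 1 of 6 had an unadjusted limma p under 0.05 (Gabra4), beside 1352 of all 8864 genes. With 10 samples 2 of 7 had one (Gabra3 and Gabra4), beside 6871 of 17936. The t-test of the methods passed 0 members with either set, beside 1493 and 3307 of those genes at an unadjusted p under 0.05.

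For each member, the named gene whose log2 levels over the 10 samples were most like it was found by Pearson correlation among 14735 candidates, as a description of samples that share groups and dyes. These were Pcdh20 for Gabra5 (r = 0.981), Daglb for Gabrd (r = 0.964), Nfib for Gabra2 (r = 0.966), Kcnmb4 for Gabra3 (r = 0.989), Smarca5-ps for Gabra4 (r = 0.977), Farsb for Gabrb1 (r = 0.929) and Mrpl33 for Gabrb2 (r = 0.969).

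The rest of the GABA system was followed in 57 genes of 7 lists, of which 50 were measured in the 10 samples. Between MRL/lpr and MRL/MpJ, 4 rose and 9 fell, which is 26% of those measured beside 15.7% of all genes. Between MRL/lpr and Fn14koMRL, 2 rose and 4 fell (12% beside 9.12%), and between Fn14koMRL and MRL/MpJ, 5 rose and 7 fell (24% beside 21.1%). With all 12 samples 32 were measured. Of these, 5 changed between MRL/lpr and MRL/MpJ (15.6% beside 9.17% of all genes) and 1 between MRL/lpr and Fn14koMRL (3.1% beside 3.98%). Between Fn14koMRL and MRL/MpJ 0 changed, beside 0.519% of all genes. With array as a random block the first 2 of these counts were 0 and 0. Among the genes called were Iqsec3 (-0.86), Mdga1 (1.48), Clptm1 (-1.44) and Plcl2 (-1.89 and, against Fn14koMRL, -1.64), with limma adjusted p of 0.0187 to 0.0477. The values below are log2 fold changes over the 10 samples. Of the genes named, Gabrg3, Kctd12, Gabbr2, Slc6a11, Slc6a13, Ubqln1, Plcl1 and Srd5a1 had no spot that passed the filter in all 12.

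Of the other 12 receptor subunits 7 were measured. Gabrg3, the gamma-3 subunit, whose gene neighbours Gabra5, fell by 0.69 against MRL/MpJ (limma adjusted p = 0.0169) and by 0.65 against Fn14koMRL (adjusted p = 0.0301), opposite in direction to Gabra5. Between Fn14koMRL and MRL/MpJ, limma called 0 of the 7, and Gabrg3 had -0.04 (adjusted p = 0.845).

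All 5 genes of the metabotropic GABA-B receptor were measured. Kctd12, an auxiliary subunit that speeds its desensitization, was at 4.22 and 3.62 in MRL/lpr, 1.56 to 2.10 in Fn14koMRL and 1.07 to 1.50 in MRL/MpJ. It rose in MRL/lpr by 1.60 against MRL/MpJ and 1.08 against Fn14koMRL, and in Fn14koMRL by 0.51 against MRL/MpJ (limma adjusted p = 0.000537, 0.00715 and 0.0429). Kctd8, of the same family, fell by 0.87 between MRL/lpr and MRL/MpJ (adjusted p = 0.0382), but with all 12 samples its value was -0.02 (adjusted p = 0.986). The receptor's own subunits Gabbr1 and Gabbr2 fell by 0.59 and 0.68 between Fn14koMRL and MRL/MpJ (adjusted p = 0.0129 and 0.0369), and with all 12 samples Gabbr1 had -0.72 (adjusted p = 0.16). Gabbr2 split by dye in MRL/MpJ, at 1.10 in both Cy3 samples and 0.593 and 0.704 in the Cy5 samples. In Fn14koMRL it was at 0.494 to 0.566.

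Of 8 genes of GABA synthesis, packaging, uptake and breakdown, all were measured. Slc6a13 (GAT-2), known from the meninges, was at 13.4 and 4.58 in MRL/lpr against 2.30 to 3.30 elsewhere, and rose by 1.52 against MRL/MpJ and 1.56 against Fn14koMRL (limma adjusted p = 0.014 and 0.018); the choroid plexus markers were high in the same samples. The astrocytic transporter Slc6a11 (GAT-3) was highest in MRL/MpJ, falling by 1.29 in MRL/lpr and by 1.48 in Fn14koMRL (adjusted p = 0.0152 and 0.00383). The degrading enzyme Abat fell by 0.77 between MRL/lpr and Fn14koMRL and rose by 0.58 between Fn14koMRL and MRL/MpJ (adjusted p = 0.0437 and 0.0375), and the vesicular transporter Slc32a1 rose by 1.06 in that last comparison (adjusted p = 0.0277). These calls were lost with all 12 samples: Abat had -1.21 and 0.33 (adjusted p = 0.0543 and 0.722) and Slc32a1 0.89 (adjusted p = 0.161). Slc32a1 also split by dye in MRL/MpJ, at 9.96 and 10.6 in the Cy3 samples and 3.67 and 3.92 in the Cy5 samples. In Fn14koMRL it was at 11.7 to 14.1.

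Of 10 genes of the inhibitory postsynaptic scaffold, Iqsec3 and Lhfpl4 fell in both Fas-mutant groups against MRL/MpJ, by 0.70 and 0.72 in MRL/lpr and by 0.68 and 0.81 in Fn14koMRL (limma adjusted p = 0.0196, 0.0071, 0.00969 and 0.00202). With all 12 samples Lhfpl4 had -0.74 and -1.06 (adjusted p = 0.0682 and 0.0769), and Iqsec3 in Fn14koMRL -0.93 (adjusted p = 0.0871). Lhfpl4 is a partner that holds the receptor at synapses. Mdga1, which restrains neuroligin-2, rose by 1.22 in MRL/lpr against MRL/MpJ (adjusted p = 0.0226), and 0 of the 10 changed between MRL/lpr and Fn14koMRL, where Nlgn2 had -0.72 and Lhfpl4 0.09 (adjusted p = 0.213 and 0.778). Among 12 genes of receptor trafficking, Plcl2 fell in MRL/lpr by 0.85 against each group (adjusted p = 0.0172 and 0.025). Clptm1, which retains receptors inside the cell, fell against MRL/MpJ by 0.65 in MRL/lpr and 0.62 in Fn14koMRL (adjusted p = 0.0203 and 0.0107), and Hap1 rose by 0.97 in both (adjusted p = 0.04 and 0.0166). Neither call for Hap1 held with all 12 samples, at -0.04 in MRL/lpr and 0.77 in Fn14koMRL (adjusted p = 0.959 and 0.502), and that for Clptm1 in Fn14koMRL was lost (-0.87, adjusted p = 0.231). Ubqln1 fell by 0.58 in MRL/lpr and Plcl1 by 0.72 in Fn14koMRL against the same group (adjusted p = 0.0276 and 0.0481). Plcl1 split by dye in MRL/MpJ, at 0.398 and 0.397 in the Cy3 samples and 0.712 and 0.810 in the Cy5 samples. In Fn14koMRL it was at 0.287 to 0.378.

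The chloride transporters set the driving force of the receptor, and 0 of 4 changed in any comparison. The neuronal exporter Slc12a5 (KCC2) had -0.21, -0.28 and 0.07 and Clcn3 -0.20, -0.11 and -0.09 in the comparisons of MRL/lpr with MRL/MpJ, of MRL/lpr with Fn14koMRL and of Fn14koMRL with MRL/MpJ (limma adjusted p = 0.53 to 0.843). Of 4 measured genes of neurosteroid synthesis, whose products act on receptors with a delta subunit, Srd5a1 rose by 0.53 between Fn14koMRL and MRL/MpJ (adjusted p = 0.0455). In MRL/lpr Srd5a1 had 0.63 and 0.10 and Tspo 0.29 and 0.43 against MRL/MpJ and Fn14koMRL (adjusted p = 0.0604 to 0.845).

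**Figure D4:**
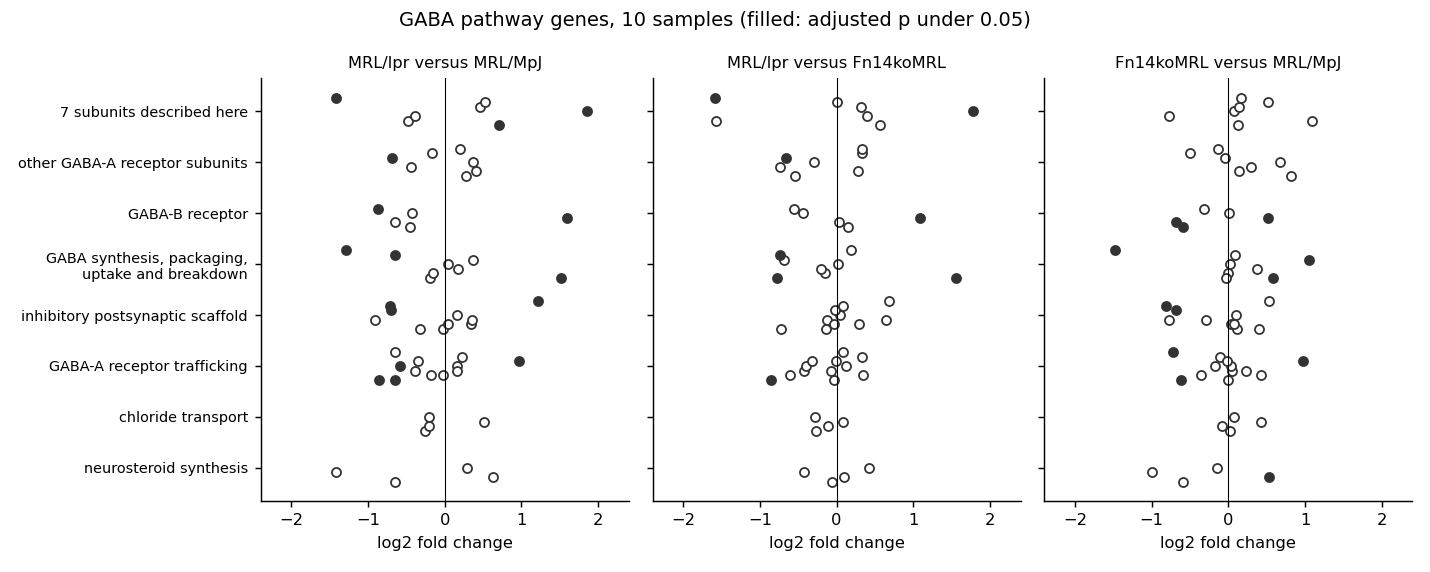
Log2 fold changes (x axis) over the 10 samples of the 7 subunits and of the genes of 7 lists of the GABA system (rows; each dot a gene, spread vertically for legibility) in the 3 comparisons; dots are filled where the adjusted p is under 0.05. In the comparison with MRL/MpJ, Gabra5 in MRL/lpr at 1.86 and Kctd12 at 1.60 lie furthest to the right and Gabrd at -1.42 lies furthest to the left among the filled dots.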

How the data were processed

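RNA from the hippocampus of 12 mice was measured on 6 Agilent two-colour arrays of 60-mer probes, with a different mouse in each channel. The deposited files hold the scanner intensities of each spot, extracted by the authors with Agilent Feature Extraction 12.1 per the file headers, with probe positions on mm9; mean foreground and median local background intensities were used. Some label text calls the tissue cortex, whereas the tissue field says hippocampus.

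From these, background was subtracted, spots under 2 times background or marked as outliers were left out, and each channel was divided by its median. Spots were averaged to probes and probes to genes on the linear scale, as the study's methods describe, and log2 levels were fitted with limma 3.58.1 (R 4.3.3; lmFit, eBayes with trend) with group and dye, and Benjamini-Hochberg adjustment. Samples were grouped by their labels. With 12 samples 8864 genes were fitted, and 17936 with 10. Spots had to pass in every sample of a fit. Gabra5, which did not over 12 samples, was fitted without that filter among 29608 genes, with signals under 1% of the channel median set to 1%. Two-sided exact permutation tests were run on single genes. The mice are separate animals, but 2 of a group share each array and both arrays of a group a slide, so p-values treat samples as more independent than the arrays were. The number of arrays limits precision.

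The genes named were the 7 members, and from each pathway list those called (up to 5 a list and comparison, by size), or the 2 of highest mean level where none was, and for each member the gene most correlated with it over the 10 samples. Some genes of the lists are counted but not reported by name here. Members, lists and markers were chosen with earlier results of these data known. Alternatives covered the filter, background, signal, normalization, dye, array, replicate number, sample weights, the methods' t-test and leaving out samples. The filter on at least 11 samples, the set also without the MRL/MpJ Cy5 samples and the array block over 10 samples were added after the data were seen. The fits were tested on simulated data. Probe sequences are those of the array files, and gene order is from RefSeq (GRCm38.p6). Python 3.11.15, pandas 2.3.3, numpy 2.4.6 and matplotlib 3.10.9 were used.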

Additional observations from a re-analysis of the deposited data

Results flagged for a closer look

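In each group of 4 samples the sample farthest from the others was set against Dixon's 95% critical value, as its gap to the nearest of the others divided by the range of the group. Of 35 groups tested 4 exceeded it, and chance gives about 1 in 20.

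Gabrd was low in MRL/lpr replicate 3 with 12 samples, at 0.593 beside 1.23 to 1.28 in the other three (ratio 0.947). This sample lies on the weak array. In MRL/MpJ replicate 1, Gabrd was at 2.71 beside 4.09 to 4.21 (ratio 0.935). Both values lie on their own group's side of the gap between MRL/lpr and MRL/MpJ. Gabrb1 was low in Fn14koMRL replicate 3, at 0.614 beside 0.945 to 0.966 with 12 samples (ratio 0.951). Gabra2 was high in Fn14koMRL replicate 4 with 10 samples, at 3.09 beside 2.59 to 2.62 (ratio 0.923).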

How the results depend on the processing

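In this account the first comparison is MRL/lpr against MRL/MpJ, the second MRL/lpr against Fn14koMRL and the third Fn14koMRL against MRL/MpJ, a number called is a count of genes under the adjusted threshold, and other values are log2 fold changes. The counts as reported were 2, 1 and 0 members with 12 samples, 3, 2 and 0 with 10, and 5, 1 and 0 pathway genes with 12. With the same set of samples, no member that was called turned its sign under any alternative, but Gabra5, called in the first and second with 10 samples, had the opposite sign in the unfiltered fit of 12, at -0.12 and -0.86. Fits of 1 dye over 10 samples, and of 10 without MRL/lpr replicate 1 or 2, hold a single MRL/lpr sample that is taken to vary like the other groups. Of the fold changes of single members recomputed, 869 kept direction and side of the threshold, 46 kept direction but lost a call, 41 gained one and 97 turned sign. The cause of the changes below was not tested. The counts below are given without the share of all genes that each alternative called, so they are not results about the subunits or the lists.

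Without the filter on spots, the members called were 0 in the first with 12 samples and 1 in the first and 1 in the third with 10 samples, and the pathway genes called were 0 in the first and 9 in the second. Signs turned without the filter on spots for Gabra3 at -0.18 and Gabrb1 at -0.41 in the first, Gabra2 at -0.70, Gabra4 at -0.92 and Gabrb1 at -1.19 in the second, Gabrb1 at 0.79 and Gabrd at 0.83 in the third with 12 samples, and for Gabra4 at -0.12, Gabrb1 at -0.19 and Gabrb2 at -0.51 in the second with 10 samples. With array as a random block, the members called were 0 in the first and 0 in the second with 12 samples and 4 in the second and 2 in the third with 10 samples, and the pathway genes called were 0 in the first and 0 in the second. Among Cy3 samples, the members called were 0 in the first and 0 in the second with 12 samples. Signs turned among Cy3 samples for Gabra3 at -0.67 in the first, Gabrb2 at 0.084 in the second, Gabra2 at -0.10, Gabra3 at -0.10 and Gabrb2 at -0.84 in the third with 12 samples, and for Gabra4 at 0.14 and Gabrb2 at -0.38 in the first, Gabra2 at -0.19, Gabra3 at -0.060, Gabrb2 at -0.79 and Gabrd at -0.18 in the third with 10 samples. Among Cy5 samples, the members called were 0 in the first and 0 in the second with 12 samples. With 10 samples that fit holds 1 MRL/lpr sample, and its counts are not given. Signs turned among Cy5 samples for Gabra5 at 0.25 and Gabrb2 at 0.52 in the first, Gabrd at 0.056 in the third with 12 samples, and for Gabra3 at 0.76 in the first, Gabra4 at -0.21 and Gabrb2 at -0.40 in the second with 10 samples. With spots valid in at least 11 samples, the members called were 1 in the first with 12 samples. Signs turned with spots valid in at least 11 samples for Gabra5 at 0.50 in the first, Gabra5 at 0.58 in the second, Gabra2 at -0.018, Gabra5 at -0.077 and Gabrd at 0.019 in the third with 12 samples. With Agilent's processed signal, the members called were 2 in the second with 12 samples and 1 in the third with 10 samples, and the pathway genes called were 4 in the second. Signs turned with Agilent's processed signal for Gabra3 at -0.43, Gabra4 at 0.18 and Gabra5 at 0.14 in the first, Gabra2 at -0.027, Gabrb2 at -0.26 and Gabrd at 0.17 in the third with 12 samples, and for Gabrb2 at -0.36 in the first, Gabrb2 at -0.049 in the second, Gabra2 at -0.15, Gabrb1 at -0.043 and Gabrb2 at -0.31 in the third with 10 samples. With estimated array weights, the members called were 2 in the second and 3 in the third with 12 samples. Signs turned with estimated array weights for Gabra3 at -0.75, Gabra5 at 1.64 and Gabrb2 at 0.16 in the first, Gabra5 at 0.55 in the second with 12 samples, and for Gabrb2 at -0.10 in the first, Gabrb2 at -0.21 in the second with 10 samples. Without the weak array, the members called were 2 in the second, and the pathway genes called were 13 in the first, 6 in the second and 12 in the third. Signs turned without the weak array for Gabra3 at -0.48, Gabra5 at 1.86 and Gabrb2 at 0.53 in the first, Gabra5 at 1.78 and Gabrb2 at 0.0061 in the second, Gabrb1 at 0.14 and Gabrd at 0.17 in the third. With the methods' t-test, the members called were 1 in the first with 10 samples. Signs turned with the methods' t-test for Gabra5 at 0.93 in the first, Gabra5 at 0.36 in the second with 12 samples, and for Gabrb2 at -0.056 in the second with 10 samples. With quantile normalization, the members called were 1 in the third with 10 samples, and the pathway genes called were 2 in the first and 0 in the second. Signs turned with quantile normalization for Gabra4 at -0.30 in the second, Gabra5 at -0.043 in the third with 12 samples, and for Gabra2 at -0.035, Gabra5 at -0.049, Gabrb1 at -0.056 and Gabrd at -0.075 in the third with 10 samples. Without the MRL/MpJ Cy5 samples as well, the members called were 4 in the second with 10 samples. Signs turned without the MRL/MpJ Cy5 samples as well for Gabrb2 at -0.65 in the first, Gabra2 at -0.092, Gabra3 at -0.089, Gabrb2 at -0.65 and Gabrd at -0.080 in the third with 10 samples. With normexp, the pathway genes called were 3 in the second. Signs turned with normexp for Gabrb2 at -0.013 in the second with 10 samples. With the replicate block, the pathway genes called were 0 in the second. Signs turned with the replicate block for Gabrb2 at -0.20 in the second with 10 samples. With only spots well above background, the members called were 1 in the third with 10 samples, and the pathway genes called were 2 in the first, 2 in the second and 2 in the third. Signs turned with only spots well above background for Gabra2 at -0.041, Gabra5 at -0.100, Gabrb1 at -0.027 and Gabrd at -0.0037 in the third with 10 samples.

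When 1 sample was left out at a time, the members called ranged from 1 to 2, from 0 to 3 and, for the third comparison, stayed at 0 with 12 samples, and from 1 to 3, from 1 to 2 and from 0 to 1 with 10. Signs then turned for members that were not called: with 12 samples Gabra5 ranged from -0.96 to 0.68 and Gabrb2 from -0.41 to 0.20 in the first, Gabra3 from -1.04 to 0.016 in the second, and Gabrb2 from -0.022 to 0.60 and Gabrd from -0.24 to 0.090 in the third. With 10 samples Gabra3 ranged from -1.14 to 0.18 and Gabra4 from -0.95 to 0.18 in the first, Gabra4 from -0.17 to 0.96 and Gabrb2 from -0.36 to 0.29 in the second, and Gabra2 from -0.011 to 0.20, Gabrb1 from -0.024 to 0.26 and Gabrd from -0.055 to 0.41 in the third.

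Replicate numbers are shared between groups but mark the dye. Over 12 samples, samples of the same number in different groups correlated over 0.1 in 8 of 12 pairs (median 0.23), and samples of the same dye but different number also in 8 of 12 (median 0.18). The numbers therefore do not establish a pairing. With replicate number as a block in place of dye, the members called were 2, 1 and 0 with 12 samples and 2, 2 and 0 with 10, where Gabra2 was lost (adjusted p = 0.0775).

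Precision is limited by the number of arrays and, for the weak array, by a signal near background. In MRL/lpr replicates 3 and 4, 19.6% to 25.2% of probes were well above background, against 29.6% to 68.1% in the other samples, which is why 8864 genes could be tested with 12 samples and 17936 with 10.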

Other observations

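Over the 10 samples the median log2 fold change of the 8 pyramidal cell markers was 0.99 between MRL/lpr and MRL/MpJ, 0.45 between MRL/lpr and Fn14koMRL and 0.39 between Fn14koMRL and MRL/MpJ, beside -0.10, -0.04 and -0.07 over all genes. Neurod6 rose by 1.98 on the log2 scale between MRL/lpr and MRL/MpJ and by 1.96 between MRL/lpr and Fn14koMRL (limma adjusted p = 0.00309 and 0.00505). With all 12 samples these were 0.90 and 1.12 (limma adjusted p = 0.177 and 0.121). Fibcd1, a marker of CA1 pyramidal cells, rose by 2.51 between MRL/lpr and Fn14koMRL and fell by 1.19 between Fn14koMRL and MRL/MpJ (adjusted p = 0.00708 and 0.0429), a comparison in which Bok and Wfs1 rose by 1.01 and 0.54 (adjusted p = 0.0113 and 0.0375). With all 12 samples Fibcd1 had 4.42 and -1.44, Bok 0.75 and Wfs1 0.29 (limma adjusted p = 0.0393, 0.602, 0.123 and 0.881). These genes are named here after their values had been seen.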
